A study of Mus musculus with 8 samples.

Results

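The genes described here are 37 genes of glycolysis and of the response to low oxygen, taken by symbol from the annotated probe set table and read in 4 sorted populations of mouse myeloid cells. All 37 were measured, among 21442 genes with a symbol. They comprise 3 transporters of glucose and lactate, 10 enzymes and isoenzymes of the first steps of glycolysis, 7 of its later steps with lactate dehydrogenase, 3 regulators of glycolytic flux, 4 genes for hypoxia-inducible factor (HIF) subunits and their hydroxylases, and 10 other genes known to respond to hypoxia. The rule that names them goes by gene function, and they were chosen with earlier results of these data known.

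All mice were C57BL/6 and heterozygous for a GFP knock-in at Cx3cr1, the gene of the fractalkine receptor (Cx3cr1gfp/+), in tumour and healthy groups alike, and none was treated. F4/80-high tumour-associated macrophages (F4/80-high TAM) and Ly6C-high tumour-infiltrating cells (Ly6C-high TAM) were sorted from orthotopic colorectal tumours of male mice. Colon macrophages were steady-state cells of the colonic lamina propria, from a male source in replicate 1 and a female source in replicate 2. Spleen monocytes were Ly6C-high cells, from a male source in replicate 1 and a source of mixed sex in replicate 2. Ages, the tumour line and the number of animals per sample are not given in the sources used here. Each population had 2 arrays, and nothing says that the tumour replicates came from separate animals, so p-values measure only the spread between these samples. In the comparison of tumour with spleen, the tumour and the tissue of origin cannot be told apart, and the sex of the source differs between the tumour groups and replicate 2 of both healthy groups.

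Glycolysis splits glucose to pyruvate in the cytosol, and lactate dehydrogenase turns pyruvate into lactate, which leaves the cell through monocarboxylate transporters. In low oxygen, prolyl hydroxylases no longer mark HIF alpha subunits for destruction, and HIF then binds short DNA motifs beside its target genes, many of which encode glycolytic enzymes. In macrophages this program is known from poorly perfused and inflamed tissue, and inflammatory stimuli can also engage it when oxygen is plentiful. HIF alpha subunits are controlled mainly at the level of protein, which arrays do not measure.

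Values are log2 expression values, given for replicate 1 and then replicate 2 of F4/80-high TAM, Ly6C-high TAM, colon macrophages and spleen monocytes. A gene was called where limma gave an adjusted p of 0.05 or less over all genes and a fold of 2 or more. Errors of differences are standard errors (SE) of that fit, with n = 2 arrays per group, a number that limits how precise any value can be. In such bulk samples, a change in the share of a cell type and a change in RNA per cell cannot be told apart.

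The arrays carried the markers of myeloid cells: Csf1r, the receptor for a macrophage growth factor, lay between 12.55 and 12.95 on all 8, and the mean of 11 macrophage and monocyte genes between 11.72 and 12.50. Other cell types were not evenly present. The mean of 24 epithelial genes was 10.82 and 11.60 in colon macrophages and 6.92 and 6.41 in spleen monocytes. It was 6.72 and 8.27 in F4/80-high TAM and 6.80 and 8.79 in Ly6C-high TAM, so that replicate 2 of both tumour populations stood above replicate 1. Fibroblast genes (15) ran the same way between the tumour replicates, with means of 7.55 and 8.65 in F4/80-high TAM and 8.01 and 9.41 in Ly6C-high TAM. The mean of 25 cell cycle genes was 9.97 and 10.33 in F4/80-high TAM, 8.22 and 9.99 in Ly6C-high TAM, 8.68 and 9.04 in colon macrophages and 7.87 and 7.85 in spleen monocytes. The calls that changed with replicate 2 of each tumour population left out are named with each comparison.

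Many of the glycolysis and hypoxia response genes were higher in the tumour populations than in the healthy ones, and none was called lower. The mean log2 value of the 37 genes was 10.45 and 10.69 in F4/80-high TAM, 10.76 and 10.76 in Ly6C-high TAM, 9.67 and 10.03 in colon macrophages and 9.74 and 9.71 in spleen monocytes. All 4 tumour arrays lay above all 4 healthy arrays in this mean. Against the mean of the healthy populations, 15 of 37 genes (40.5%) were called higher in the mean of the tumour populations and 0 lower, where 2.88% of all genes were called higher and 1.62% lower by limma. The fit took the 4 tumour arrays as independent, but same-numbered arrays of the tumour populations deviated together (correlation 0.77). The SE and adjusted p of tumour against healthy means may therefore be too small, here and for the single genes below. The median difference was 0.79 over these genes and -0.03 over all genes. At an unadjusted p under 0.05 the counts were 28 higher and 0 lower. The share over all genes at this unadjusted limit was not computed, here or for later counts, so such counts only describe the listed genes. On the adjusted p alone, with no limit on fold, 23 were higher, against 8.65% of all genes. For 24 of the 37, every tumour array lay above every healthy array, which was so for 8.07% of all genes.

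**Figure D1:**
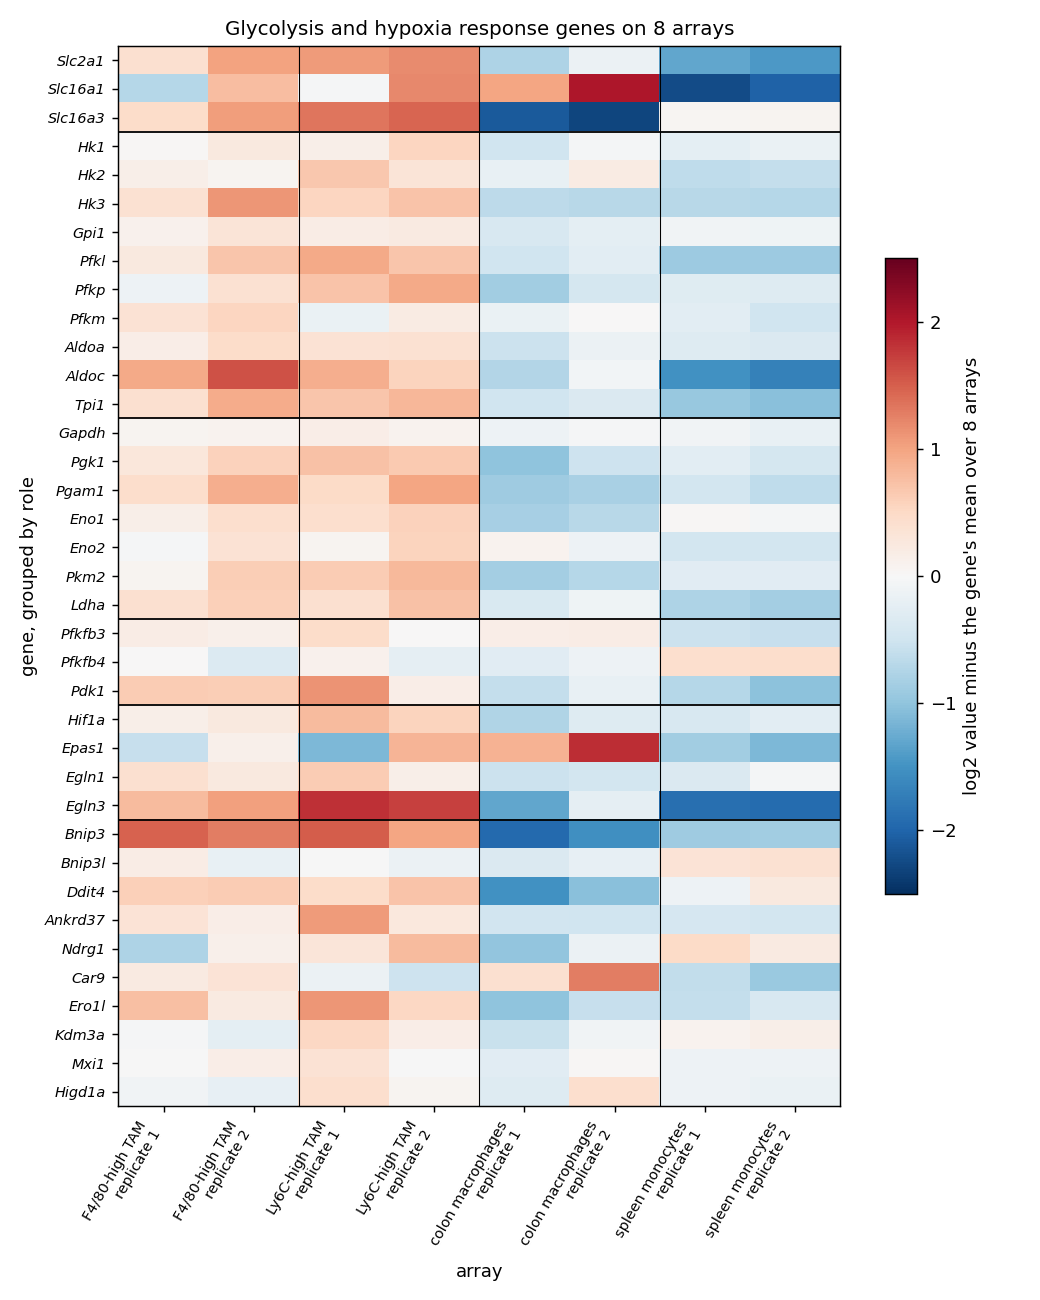
Log2 value of each of the 37 genes (rows, in 6 role groups parted by lines) on each of the 8 arrays (columns), shown as the difference from the gene's own mean over the 8 arrays, red above and blue below. Most rows are red on the 4 tumour arrays at the left and blue on the healthy arrays at the right, while Epas1 and Car9 are reddest on the colon arrays and Slc16a1 is red on the colon arrays and on replicate 2 of the tumour populations.

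Of the 15 genes, 10 were called under every alternative setting tried: Slc2a1, Slc16a3, Hk3, Pfkl, Aldoc, Tpi1, Pgam1, Egln3, Bnip3 and Ddit4. The other calls each depended on some array. Pgk1 was lost without colon macrophages replicate 1, Pkm2 without F4/80-high TAM replicate 2, and Ero1l without spleen monocytes replicate 1. Ldha was lost without colon macrophages replicate 1 or Ly6C-high TAM replicate 2. Pdk1 was lost without colon macrophages replicate 1, either spleen array or F4/80-high TAM replicate 2. With replicate 2 of each tumour population left out, 14 genes were called, 13 of them among the 15, with Pkm2 and Ldha lost and Ankrd37 gained.

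**Figure D2:**
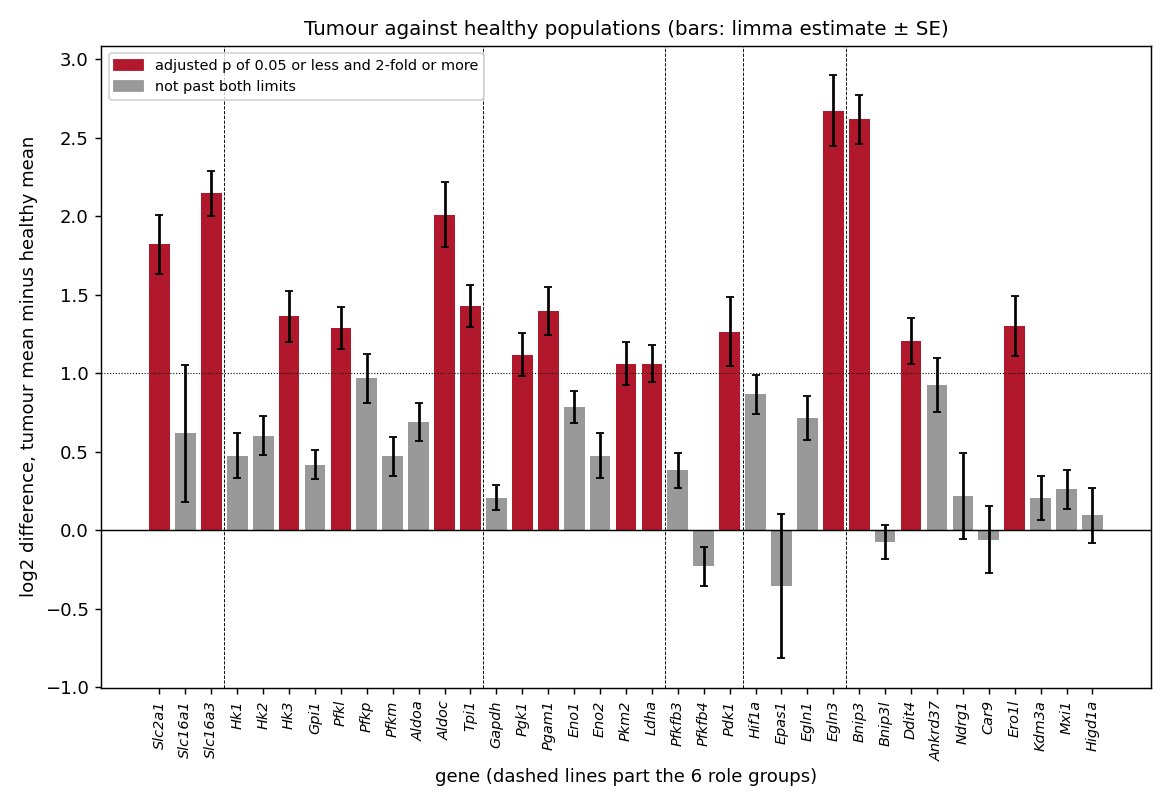
Log2 difference of the tumour mean minus the healthy mean for each gene, as a bar from 0 with the SE of the limma fit, in the 6 role groups. Red bars are the 15 genes past both limits, from Ldha at 1.06 to Egln3 at 2.67, and grey bars are the other 22.

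As many of these genes were higher in the same arrays, the stretch before each gene start was read for the core letters of the HIF binding motif, ACGTG and GCGTG, on both strands (CACGT and CACGC in the printed strand). Where the palindrome CACGTG matched on both strands it was counted as 1 site. RefSeq promoters (build GRCm38.p6) were given for 34 of the 37 genes, without Epas1, Bnip3l and Ndrg1, and the 250 bases before the start were searched. At least 1 match in any window was present for 31 of 34 genes (91.2%), against 41.5% of 27025 genes in the table, and 38.6% of all 32851 windows. The 34 genes had 51 windows, more per gene than the whole table. They were listed for glycolysis or a known response to hypoxia, so their share with a HIF motif is not independent of that choice. The median GC content was 61.6% over the 51 windows of these genes and 52.4% over all windows, and the median number of CG pairs, which both motifs contain, was 14 against 6. Among genes called higher in tumour, 14 of 15 (93.3%) had a match, and among the genes not called 17 of 19 (89.5%). With at least 2 matches there were 8 of 15 (53.3%) called genes and 11 of 19 (57.9%) that were not called, so the motif count did not set the called genes apart. The 6 sequences below are those of the genes with a tumour difference of at least 2 log2 units, or with tumour differences that were not equal in both lineages. They run 5′ to 3′ on the gene's strand from 12 bases before the first match to 12 after the last or to the gene start, with the matched letters in capitals.
Slc16a1, chr3:104638452-104638546, plus strand: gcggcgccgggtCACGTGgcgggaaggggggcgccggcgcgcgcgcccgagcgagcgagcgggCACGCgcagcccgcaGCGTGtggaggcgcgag
Slc16a3, chr11:120949028-120949066, plus strand: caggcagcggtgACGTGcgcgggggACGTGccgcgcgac
Aldoc, chr11:78323011-78323039, plus strand: ccacctctgaggGCGTGgccttaccctag
Egln3, chr12:54204087-54204115, minus strand: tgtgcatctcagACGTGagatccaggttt
Bnip3, chr7:138909525-138909635, minus strand: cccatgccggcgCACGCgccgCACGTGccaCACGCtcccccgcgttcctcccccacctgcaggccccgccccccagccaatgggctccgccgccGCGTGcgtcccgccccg
Ddit4, chr10:59951869-59951969, minus strand: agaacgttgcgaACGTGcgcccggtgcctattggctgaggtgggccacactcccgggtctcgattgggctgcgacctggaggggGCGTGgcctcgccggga
Bnip3 held 4 matches, the first starting 117 bases and the last 35 bases before the start. In Slc16a3 the 2 matches lay 27 and 14 bases before it. Egln3 had 1 match in this window, 229 bases before the start. A match describes letters and does not show binding, and no binding was measured here.

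Among the transporters, those for glucose uptake and lactate export were higher in tumour. Slc2a1 encodes GLUT1, the main glucose importer of activated myeloid cells. It read 12.09 and 12.70 in F4/80-high TAM, 12.77 and 12.88 in Ly6C-high TAM, 10.93 and 11.55 in colon macrophages, and 10.41 and 10.26 in spleen monocytes. The tumour and healthy arrays did not overlap, and spleen monocytes were lowest. The difference was 1.82 ± 0.19 between tumour and healthy means (3.54-fold, limma adjusted p = 0.00254), 1.16 ± 0.26 for the macrophages and 2.49 ± 0.26 for the Ly6C-high cells.

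Slc16a3 encodes MCT4, a lactate exporter of cells with high glycolysis. It read 10.87 and 11.46 in F4/80-high TAM, 11.76 and 11.88 in Ly6C-high TAM, 8.31 and 8.13 in colon macrophages, and 10.47 and 10.48 in spleen monocytes. Every tumour array was above every healthy array, and the colon arrays lay below the spleen arrays. It was 7.71-fold higher in F4/80-high TAM than in colon macrophages (2.95 ± 0.20, limma adjusted p = 0.00134). In Ly6C-high TAM it was 2.54-fold higher than in spleen monocytes (1.34 ± 0.20, adjusted p = 0.0127).

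Slc16a1, which encodes the related lactate and butyrate transporter MCT1, had another pattern. It read 8.10 and 9.60 in F4/80-high TAM, 8.80 and 10.02 in Ly6C-high TAM, 9.80 and 10.85 in colon macrophages, and 6.58 and 6.81 in spleen monocytes. Its mean was highest in colon macrophages and its values lowest in spleen monocytes. Replicate 2 of Ly6C-high TAM lay above replicate 1 of colon macrophages, and replicate 2 was above replicate 1 in all 4 populations. Colon macrophages were 12.4-fold above spleen monocytes (3.63 ± 0.62, limma adjusted p = 0.00904). The differences of -1.48 ± 0.62 for the tumour macrophages (adjusted p = 0.188) and 2.71 ± 0.62 for the tumour Ly6C-high cells (adjusted p = 0.0516) were not called. With the replicate number as a block in the limma fit both were, at adjusted p = 0.0289 and 0.00653. The second was also called with low genes left out, with an intensity trend, and without F4/80-high TAM replicate 1 or 2 or Ly6C-high TAM replicate 1. Gut epithelium is known to carry MCT1, and the epithelial gene means above were highest on the same colon arrays and higher in replicate 2 of each tumour population. Their part in the Slc16a1 values was not tested. Without the replicate 2 tumour arrays both were called, at -2.23 in the macrophages (adjusted p = 0.0242) and 2.10 in the Ly6C-high cells (adjusted p = 0.0418).

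**Figure D3:**
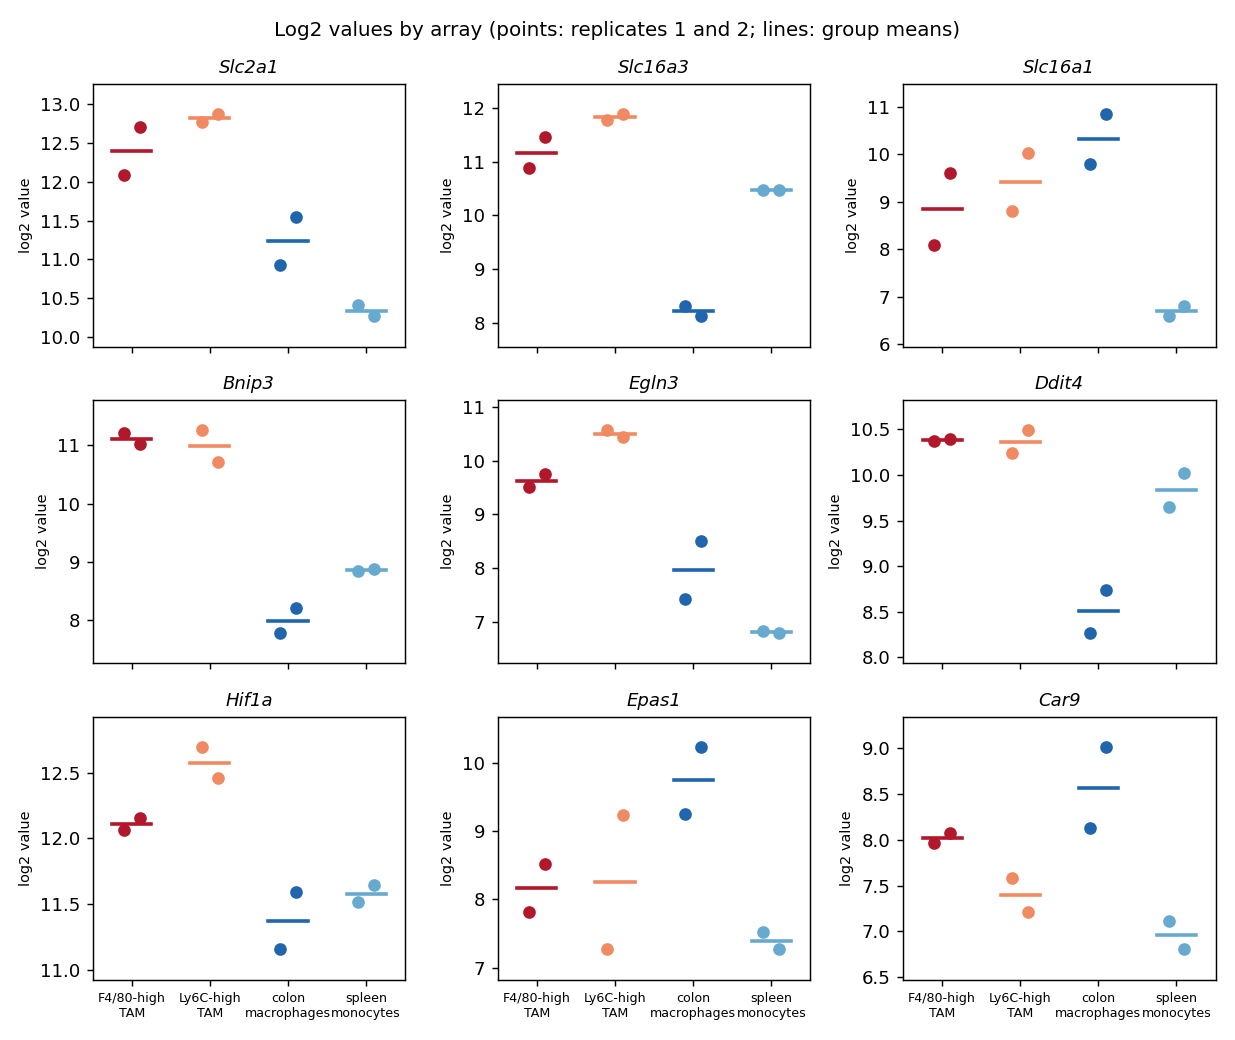
Log2 values of 9 genes in the 4 populations, with a point for each of the 2 arrays and a line at the group mean; each panel has its own axis. Slc2a1, Slc16a3, Bnip3, Egln3, Ddit4 and Hif1a have all tumour points above all healthy points, while Slc16a1, Epas1 and Car9 have their highest group mean in colon macrophages.

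In the first steps of glycolysis, 4 of 10 genes were called higher in tumour against healthy means, where 2.88% of all genes were. These were Hk3, Pfkl, Aldoc and Tpi1. All 10 differences were positive, a share not computed over all genes, with a median of 0.83 against -0.03 over all genes. The 3 hexokinases, which trap glucose in the cell by phosphorylation, had different patterns. Hk3, an isoenzyme of blood and myeloid cells, read 10.05 and 10.77 in F4/80-high TAM, 10.20 and 10.37 in Ly6C-high TAM, 9.02 and 8.98 in colon macrophages, and 8.98 and 8.97 in spleen monocytes. The 4 healthy arrays were almost level and all 4 tumour arrays lay above them, a difference of 1.36 ± 0.16 (2.57-fold, limma adjusted p = 0.00412). Hk2, the inducible isoenzyme and a HIF target, read 10.34 and 10.24, 10.85 and 10.51, 10.003 and 10.38, and 9.55 and 9.59 in the same order. F4/80-high TAM and colon macrophages overlapped (0.10 ± 0.18), and Hk2 was called in Ly6C-high TAM against spleen monocytes (1.11 ± 0.18, adjusted p = 0.0156). Hk1, the housekeeping isoenzyme, was called in no comparison, with a tumour difference of 0.47 ± 0.14 (adjusted p = 0.0767).

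Phosphofructokinase commits sugar to glycolysis, and its liver-type gene Pfkl was the called form. Pfkl read 10.02 and 10.49 in F4/80-high TAM, 10.73 and 10.49 in Ly6C-high TAM, 9.29 and 9.52 in colon macrophages, and 8.88 and 8.88 in spleen monocytes. The tumour arrays did not overlap with the healthy ones, and the tumour difference was 1.29 ± 0.13 (2.44-fold, limma adjusted p = 0.00259). Pfkp, the platelet-type gene, read 10.32 and 10.83, 11.16 and 11.39, 9.57 and 10.002, and 10.14 and 10.13 in the same order. It was called in Ly6C-high TAM against spleen monocytes (1.14 ± 0.22, adjusted p = 0.0304), while its overall tumour difference of 0.97 ± 0.16 stayed under the fold limit (adjusted p = 0.0121). The muscle-type gene Pfkm had a difference of 0.47 ± 0.12, with tumour and healthy arrays overlapping (adjusted p = 0.0519).

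The aldolase isoenzymes, which split the doubly phosphorylated sugar, also moved by different amounts. Aldoc, known best from brain and also a hypoxia-responsive gene, read 9.65 and 10.29 in F4/80-high TAM, 9.61 and 9.25 in Ly6C-high TAM, 7.97 and 8.62 in colon macrophages, and 7.18 and 7.001 in spleen monocytes. It was 4.03-fold higher in tumour (2.01 ± 0.21, limma adjusted p = 0.00259), with no overlap of tumour and healthy arrays. Aldoa, the ubiquitous form, lay between 12.98 and 13.28 on tumour arrays and 12.27 and 12.67 on healthy ones. Its difference of 0.69 ± 0.12 passed the adjusted p (0.016) but not the fold.

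Tpi1, which interconverts the triose phosphates, read 12.09 and 12.63 in F4/80-high TAM, 12.39 and 12.53 in Ly6C-high TAM, 11.19 and 11.34 in colon macrophages, and 10.75 and 10.64 in spleen monocytes. All tumour arrays were above all healthy arrays, a 2.69-fold difference (1.43 ± 0.13, limma adjusted p = 0.0019). Gpi1, which isomerises the glucose phosphate made by hexokinase, differed by 0.42 ± 0.09 (adjusted p = 0.0313), under the fold limit, with all tumour arrays above all healthy ones.

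In the later steps, where ATP is made, 4 of 7 genes were called higher in tumour, against 2.88% of all genes. The median difference was 1.06. Pgk1, which carries out the first ATP-forming step, read 11.91 and 12.21 in F4/80-high TAM, 12.36 and 12.28 in Ly6C-high TAM, 10.62 and 11.11 in colon macrophages, and 11.36 and 11.20 in spleen monocytes. Pgam1, a phosphoglycerate mutase, read 11.97 and 12.43, 12.01 and 12.51, 10.64 and 10.71, and 11.08 and 10.90 in the same order. Colon macrophages were lowest for both genes, and no tumour array overlapped with a healthy one. The tumour differences were 1.12 ± 0.14 for Pgk1 (limma adjusted p = 0.00489) and 1.40 ± 0.16 for Pgam1 (adjusted p = 0.00333).

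Pkm2 is the older symbol of the pyruvate kinase gene Pkm, and the splice form was not resolved. It read 11.99 and 12.54 in F4/80-high TAM, 12.56 and 12.75 in Ly6C-high TAM, 11.09 and 11.23 in colon macrophages, and 11.64 and 11.65 in spleen monocytes. Ldha, which makes lactate, read 12.84 and 13.04, 12.84 and 13.17, 12.06 and 12.33, and 11.67 and 11.59 in the same order. Both were about 2-fold higher in tumour, at 1.06 ± 0.14 (limma adjusted p = 0.00579) and 1.06 ± 0.12 (adjusted p = 0.00327). The lowest healthy group differed between them, being colon macrophages for Pkm2 and spleen monocytes for Ldha. Ldha was called in the Ly6C-high cells (1.37 ± 0.17, adjusted p = 0.00554) and stayed under the fold limit in the macrophages (0.75 ± 0.17, adjusted p = 0.0341).

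Eno1, the ubiquitous enolase, read 12.82 and 13.11 in F4/80-high TAM, 13.11 and 13.26 in Ly6C-high TAM, 11.84 and 11.98 in colon macrophages, and 12.70 and 12.62 in spleen monocytes. Colon macrophages stood apart as lowest, and Eno1 was called against them in F4/80-high TAM (1.05 ± 0.14, limma adjusted p = 0.00848). Without the replicate 2 tumour arrays this difference was 0.91, under the fold limit. Eno2, the neuronal form, had overlapping tumour and healthy arrays and a difference of 0.48 ± 0.15 (adjusted p = 0.0786). Gapdh, often used as a reference gene, lay between 13.87 and 13.95 on tumour arrays and 13.62 and 13.76 on healthy ones. Its difference was the smallest of the later steps, 0.21 ± 0.08 (adjusted p = 0.133), on a probe set near the top of the scale, where the highest values of an array were 14.09 to 14.38.

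Several of these genes have near-identical pseudogene copies, so their probe sets may share signal with other loci. Gapdh had 38 probe sets under its symbol, and those not used had tumour differences of 0.21 to 0.48. Pgk1, Pgam1 and Eno1 had 3 each, all with positive tumour differences (1.08 to 1.12, 1.35 to 1.40 and 0.70 to 0.86 for the lowest and highest).

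Among the 3 regulators of flux, only Pdk1 was called, where 2.88% of all genes were called higher in tumour. Pdk1 encodes a pyruvate dehydrogenase kinase that holds pyruvate back from mitochondria and is a HIF target. It read 9.46 and 9.44 in F4/80-high TAM, 9.95 and 8.996 in Ly6C-high TAM, 8.24 and 8.64 in colon macrophages, and 8.10 and 7.80 in spleen monocytes. The tumour arrays were all higher, though the 2 Ly6C-high TAM arrays were 0.95 apart, and the tumour difference was 1.26 ± 0.22 (2.40-fold, limma adjusted p = 0.0159). Pfkfb3 and Pfkfb4, which set the level of a phosphofructokinase activator, were called nowhere. Pfkfb3 had differences of -0.02 ± 0.16 in the macrophages and 0.78 ± 0.16 in the Ly6C-high cells (adjusted p = 0.0381, under the fold limit). Pfkfb4 was highest in spleen monocytes, at 10.36 and 10.37, and between 9.58 and 10.04 elsewhere.

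The HIF alpha subunits had smaller tumour differences than their hydroxylase Egln3. Hif1a read 12.06 and 12.15 in F4/80-high TAM, 12.70 and 12.46 in Ly6C-high TAM, 11.15 and 11.59 in colon macrophages, and 11.52 and 11.64 in spleen monocytes. All tumour arrays were above all healthy ones, but the difference of 0.87 ± 0.13 lay under the fold limit (limma adjusted p = 0.00859). It was called only in Ly6C-high TAM against colon macrophages (1.20 ± 0.18, adjusted p = 0.00901), a call lost without colon macrophages replicate 1. Against spleen monocytes the Ly6C-high TAM difference was 1.00 ± 0.18 (adjusted p = 0.023), just under the fold limit.

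Epas1, which encodes the second HIF alpha subunit, read 7.81 and 8.52 in F4/80-high TAM, 7.27 and 9.24 in Ly6C-high TAM, 9.25 and 10.23 in colon macrophages, and 7.52 and 7.27 in spleen monocytes. Its replicates were up to 1.98 apart, with replicate 2 higher in both tumour populations, as were the epithelial and fibroblast means. So was the mean of 9 endothelial genes, at 6.82 and 7.68 in F4/80-high TAM and 7.19 and 8.33 in Ly6C-high TAM. The tumour difference was -0.36 ± 0.46 (limma adjusted p = 0.651). Without the replicate 2 tumour arrays, Epas1 was called lower in F4/80-high TAM than in colon macrophages (-1.93, adjusted p = 0.0305). The part of other cells in its values was not tested.

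Egln3, a prolyl hydroxylase that is itself a HIF target and feeds back on HIF, had the largest tumour difference of the 37 genes. It read 9.51 and 9.75 in F4/80-high TAM, 10.56 and 10.43 in Ly6C-high TAM, 7.43 and 8.51 in colon macrophages, and 6.83 and 6.79 in spleen monocytes. The order was the same on every array, with Ly6C-high TAM above F4/80-high TAM, then colon macrophages, then spleen monocytes. Egln3 was 12.8-fold higher in Ly6C-high TAM than in spleen monocytes (3.68 ± 0.32, limma adjusted p = 0.00153) and 3.16-fold higher in F4/80-high TAM than in colon macrophages (1.66 ± 0.32, adjusted p = 0.0233). The latter call was lost without the replicate 2 tumour arrays (1.54, adjusted p = 0.0627). Egln1, the main oxygen-sensing hydroxylase, differed by 0.72 ± 0.14 in tumour (adjusted p = 0.021), under the fold limit.

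Of the 10 other hypoxia response genes, Bnip3, Ddit4 and Ero1l were called higher in tumour, where 2.88% of all genes were. The median difference of the 10 was 0.24. Bnip3 encodes a mitochondrial protein of mitophagy and cell death. It read 11.20 and 11.01 in F4/80-high TAM, 11.25 and 10.72 in Ly6C-high TAM, 7.79 and 8.21 in colon macrophages, and 8.84 and 8.88 in spleen monocytes. The 4 tumour arrays lay together, far above the 4 healthy ones. It was 8.64-fold higher in F4/80-high TAM than in colon macrophages (3.11 ± 0.22, limma adjusted p = 0.00146) and 4.35-fold higher in Ly6C-high TAM than in spleen monocytes (2.12 ± 0.22, adjusted p = 0.00298). The second Bnip3 probe set gave 2.72 and 1.77 for these differences. The paralogue Bnip3l was called in no comparison (-0.07 ± 0.11 in tumour, adjusted p = 0.697) and was highest in spleen monocytes, at 12.71 and 12.75.

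Ddit4 encodes REDD1, a stress-induced inhibitor of mTOR signalling. It read 10.38 and 10.40 in F4/80-high TAM, 10.24 and 10.49 in Ly6C-high TAM, 8.27 and 8.74 in colon macrophages, and 9.65 and 10.02 in spleen monocytes. The tumour populations were level, and colon macrophages lay below all others. Ddit4 was 3.70-fold higher in F4/80-high TAM than in colon macrophages (1.89 ± 0.21, limma adjusted p = 0.00458), and the difference in Ly6C-high cells was 0.53 ± 0.21 and not called. Ero1l, an oxidase that forms disulphide bonds in the endoplasmic reticulum, read 11.50 and 10.97, 11.85 and 11.27, 9.73 and 10.16, and 10.14 and 10.34 in the same order. It was higher on every tumour array (1.30 ± 0.19, adjusted p = 0.00907).

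Ankrd37, a small HIF target of unsettled function, read 8.04 and 7.87 in F4/80-high TAM, 8.76 and 7.96 in Ly6C-high TAM, 7.22 and 7.19 in colon macrophages, and 7.27 and 7.24 in spleen monocytes. It was called in Ly6C-high TAM against spleen monocytes (1.11 ± 0.25, limma adjusted p = 0.0491). Car9, a carbonic anhydrase widely used as a marker of hypoxic tumour cells, was not among the genes higher in tumour. It read 7.96 and 8.07, 7.58 and 7.21, 8.13 and 9.02, and 7.12 and 6.80 in the same order, and was highest in colon macrophages. Colon macrophages were 3.05-fold above spleen monocytes (1.61 ± 0.30, adjusted p = 0.0124). The epithelial genes were also highest on the colon arrays, and their part in the Car9 values was not tested. The tumour differences of Ndrg1, Kdm3a, Mxi1 and Higd1a lay between 0.10 and 0.26, with overlapping arrays, and none was called. For Higd1a a second probe set gave -0.05.

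The macrophage comparison asked how the genes differ between F4/80-high macrophages of the tumour and those of the healthy colon. Of 37 genes, 13 were called higher, where 2.67% of all genes were, and 0 lower, where 3.72% of all genes were (limma). The median difference was 0.75 over these genes and 0.05 over all genes. At an unadjusted p under 0.05, 23 were higher and 2 lower, the latter Slc16a1 and Epas1. The called genes were Slc2a1, Slc16a3, Hk3, Aldoc, Tpi1, Pgk1, Pgam1, Eno1, Pkm2, Egln3, Bnip3, Ddit4 and Ero1l. Slc16a3, Bnip3 and Ddit4 were called with any array left out. The count fell to 4 without colon macrophages replicate 1, 5 without F4/80-high TAM replicate 2, 7 without colon macrophages replicate 2 and 8 without either spleen array. With replicate 2 of each tumour population left out it was 9, of which 8 were among the 13. Slc2a1, Tpi1, Eno1, Pkm2 and Egln3 were then lost and Pdk1 gained, and Slc16a1 and Epas1 were called lower. The colon arrays were not level in these genes. Replicate 1 minus replicate 2 had a median of -0.38 over the 37, and replicate 1 was higher for 4 of them. The median absolute gap was 0.38 over the 37 genes and 0.19 over all genes.

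The monocyte comparison asked the same of Ly6C-high cells in tumour and in spleen. Here 17 genes were called higher, where 2.88% of all genes were, and 0 lower, where 1.62% of all genes were (limma). The median was 1.00, against -0.08 over all genes, and 26 were higher and 2 lower (Pfkfb4 and Bnip3l) at an unadjusted p under 0.05. Of the 17, Slc2a1, Hk2, Pfkl, Aldoc, Tpi1, Ldha and Egln3 were also higher in colon macrophages than in spleen monocytes at that limit. Slc16a3, Pkm2 and Bnip3 were lower there. Slc2a1, Pfkl, Tpi1, Egln3 and Bnip3 were called with any array left out. The count fell to 5 without either spleen array and to 11 without either colon array. It was 18 without the replicate 2 tumour arrays, with 15 shared, Pgk1 and Pkm2 lost and Slc16a1, Pfkfb3 and Hif1a gained.

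Both comparisons called 11 of the genes, which is 84.6% of the macrophage list and 64.7% of the Ly6C-high list: Slc2a1, Slc16a3, Hk3, Aldoc, Tpi1, Pgk1, Pgam1, Pkm2, Egln3, Bnip3 and Ero1l. The comparisons share no array, but they share the fit's estimate of the spread. Same-numbered arrays of the tumour populations also deviated together (correlation 0.77), so the comparisons are not independent. The overlap of calls over all genes was not computed. Eno1 and Ddit4 were called in the macrophages alone, and Hk2, Pfkl, Pfkp, Ldha, Pdk1 and Ankrd37 in the Ly6C-high cells alone. Whether the tumour difference itself differed between the lineages was tested as an interaction. Slc16a3 (1.60 ± 0.28, limma adjusted p = 0.0277) and Ddit4 (1.36 ± 0.29, adjusted p = 0.0446) had a larger tumour difference in the macrophages, where 3.12% of all genes passed in that direction. Slc16a1 had the opposite (-4.19 ± 0.87, adjusted p = 0.0412), where 3.44% of all genes passed. These shares are close to the members' 2 of 37 and 1 of 37, that is 5.41% and 2.70%. For Hk2, Pfkl, Pfkp, Ldha, Pdk1, Ankrd37 and Eno1 the interaction did not pass, so a difference between lineages was not shown.

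**Figure D4:**
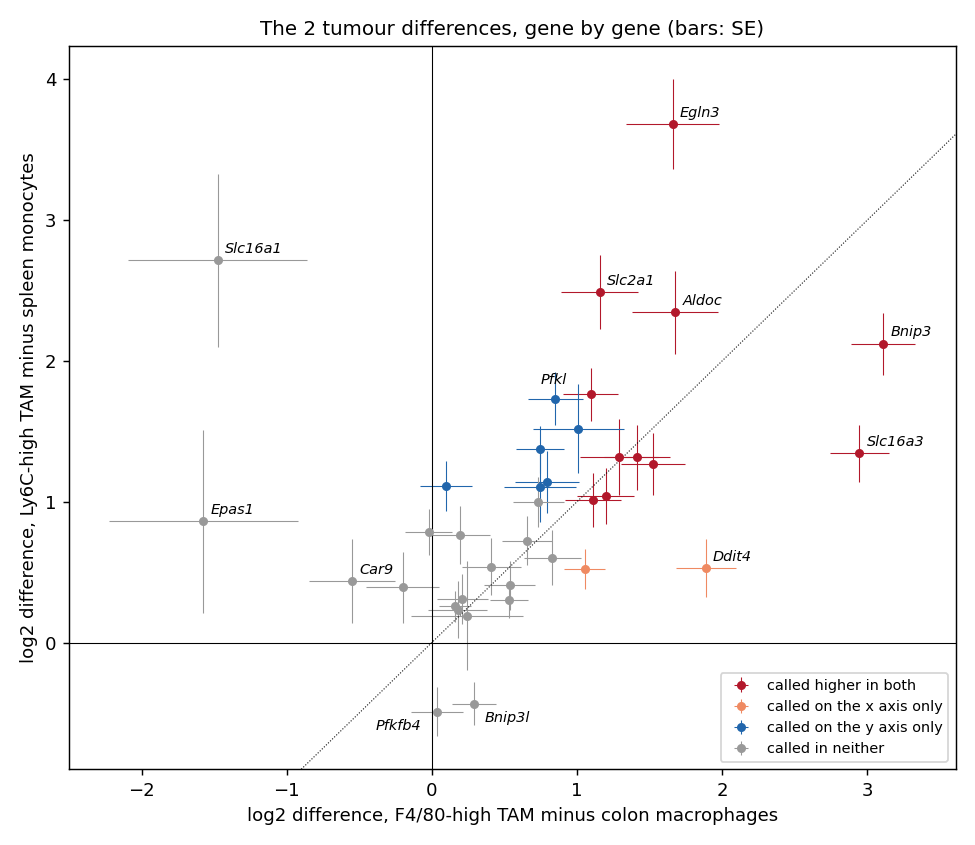
Log2 difference of each gene in F4/80-high TAM minus colon macrophages (x axis) against Ly6C-high TAM minus spleen monocytes (y axis), with SE bars; colours show where a gene was called and the dotted line marks equal differences. Bnip3, Slc16a3 and Ddit4 lie to the right of the line, Egln3 and Slc2a1 above it, and Slc16a1 lies at -1.48 on the x axis and 2.71 on the y axis.

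None of the 3 interactions held with every array left out. Slc16a3 lost the call without any 1 of the 4 healthy arrays, with an adjusted p of up to 0.133. Slc16a1 kept it only without Ly6C-high TAM replicate 1 or F4/80-high TAM replicate 2, and otherwise reached 0.158, and Ddit4 lost it without any array, with up to 0.18. Slc16a1 (adjusted p = 0.0562) and Ddit4 (0.0546) were also lost after median centring of the arrays by limma, and Ddit4 (0.0679) with replicate 2 of each tumour population left out, where Pfkl and Pfkfb3 passed as well. The healthy reference groups differed for the same genes. In colon macrophages against spleen monocytes, 3 genes were called higher (Slc16a1, Aldoc and Car9), where 6.93% of all genes were, and 2 lower (Slc16a3 and Ddit4), where 4% of all genes were. The members' shares, 8.11% and 5.41%, are close to these. At an unadjusted p under 0.05, 11 were higher and 7 lower. Aldoc differed there by 1.21 ± 0.29 (limma adjusted p = 0.0326), Slc16a3 by -2.26 ± 0.20 (adjusted p = 0.000933) and Ddit4 by -1.33 ± 0.21 (adjusted p = 0.00639). Without either spleen array 0 were called higher, without colon macrophages replicate 2 there was 1, and without colon macrophages replicate 1 there were 5. The lower call of Ddit4 was lost without spleen monocytes replicate 2, and Epas1 was called higher without the replicate 2 tumour arrays.

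The tumour populations were compared with each other. In F4/80-high TAM against Ly6C-high TAM, 0 of 37 were called in either direction by limma, where 0.168% of all genes were higher and 0.0979% lower. At an unadjusted p under 0.05, Pfkm was higher and Slc16a3, Pfkp, Hif1a and Egln3 were lower in F4/80-high TAM. The differences ran from -0.87 ± 0.32 for Egln3 (adjusted p = 0.494) to 0.62 ± 0.30 for Car9 (adjusted p = 0.671), with a median of -0.12, against 0.05 over all genes, and 29 of the 37 were negative. The highest group mean lay in Ly6C-high TAM for 26 genes, in F4/80-high TAM for 6, in colon macrophages for 3 and in spleen monocytes for 2. The same count over all genes was not made. With 0 of 37 called between the tumour populations, it does not show that Ly6C-high TAM were higher than F4/80-high TAM. The cell cycle means of the Ly6C-high TAM arrays were 8.22 and 9.99, and the means of the 37 genes on those arrays were 10.76 and 10.76. Single genes were not level there: the median absolute gap between these arrays was 0.35 over the 37 genes and 0.24 over all genes. The part of the cell cycle in these values was not tested.

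Set against the healthy population of the other lineage, the counts were similar. In F4/80-high TAM against spleen monocytes 10 genes were called higher, where 4.58% of all genes were, and 0 lower, where 2.37% were (limma). At an unadjusted p under 0.05 these were 25 and 1. In Ly6C-high TAM against colon macrophages 16 were called higher, where 2.74% of all genes were, and 0 lower, where 4.16% were, with 26 and 1 at an unadjusted p under 0.05. These comparisons share arrays with the ones above. The first count fell to 6 without spleen monocytes replicate 1 and 4 without replicate 2, and the second to 9 without colon macrophages replicate 1. Without the replicate 2 tumour arrays, Pgam1 was lost and Ero1l gained in the first. In the second, Aldoc, Pdk1 and Egln1 were gained and Epas1 was called lower. In all, 22 genes were called in at least 1 of the 8 comparisons and 15 in none: Hk1, Gpi1, Pfkm, Aldoa, Gapdh, Eno2, Pfkfb3, Pfkfb4, Epas1, Egln1, Bnip3l, Ndrg1, Kdm3a, Mxi1 and Higd1a. This count over the 8 comparisons was not made over all genes.

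Beyond the 37 genes, 39 further genes known as HIF targets were measured, and 12 were called higher and 2 lower in tumour against healthy means, where 2.88% and 1.62% of all genes were, with a median of 0.46. Arg1, arginase 1, differed by 6.38 ± 0.10, Nos2, inducible nitric oxide synthase, by 3.31 ± 0.24 (limma adjusted p = 0.000841), and Tgm2, a transglutaminase, by 2.89 ± 0.16. Vegfa, the main angiogenic factor, read 11.26 and 11.92 in F4/80-high TAM, 12.15 and 12.20 in Ly6C-high TAM, 10.09 and 11.10 in colon macrophages, and 7.45 and 7.21 in spleen monocytes. Like Egln3, it was lowest in spleen monocytes, and its tumour difference was 4.84 ± 0.35 in the Ly6C-high cells and 1.00 ± 0.35 in the macrophages (interaction -3.84 ± 0.50, adjusted p = 0.0115). Adm, adrenomedullin (-0.56 ± 0.20), and Slc2a3, a neuronal-type glucose transporter (0.25 ± 0.08), were not called. The 2 genes called lower, Car12 (-1.39 ± 0.17) and Selenbp1 (-1.56 ± 0.30), had their highest values in colon macrophages.

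Of 18 regulators of the HIF pathway, 0 were called in tumour against healthy means or in either lineage by limma. Over all genes, 2.88% were called higher and 1.62% lower in tumour against healthy means. The shares were 2.67% and 3.72% in the macrophages and 2.88% and 1.62% in the Ly6C-high cells. A count of 0 of 18 is thus near the share over all genes. At an unadjusted p under 0.05 the tumour against healthy comparison had 5 higher and 5 lower. Arnt, the constant partner of HIF alpha, differed by 0.07 ± 0.08, Vhl, the ubiquitin ligase subunit that removes HIF alpha, by 0.26 ± 0.12, and Hif1an, an asparaginyl hydroxylase, by -0.06 ± 0.11. Of 30 other genes of sugar transport and glycolysis, 0 were called higher in tumour against healthy means by limma, against 2.88% of all genes. At an unadjusted p under 0.05, 6 were higher. Ldhb, which favours the use of lactate, differed by 1.01 ± 0.20 in the macrophages and -0.50 ± 0.20 in the Ly6C-high cells, an interaction of 1.51 ± 0.29 (adjusted p = 0.0331).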

How the data were processed

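Total RNA of 8 sorted samples was measured on Affymetrix arrays. The authors made log2 values by RMA, per the submitters' processing notes, which also name Partek 6.6; the genome build is not given in the sources used here. Values of 35556 probe sets came from the deposited series matrix and symbols from the deposited annotated table, of which 8 value columns match no sample label and were not used. Of the probe sets, 24692 had a symbol, updated through RefSeq accessions, and the probe set with the highest mean stood for a gene. One limma model (version 3.58.1, R 4.3.3) took all 8 arrays, estimated each population's mean and had 4 residual and 2.64 prior degrees of freedom; Benjamini-Hochberg adjustment ran over 21442 genes. Every adjusted p is limma's. Calls used the limits in the series' design text, 0.05 for the adjusted p and 2 for the fold; the interaction had no fold limit. The scripts were tested on simulated data.

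Every gene called in any comparison, the isoenzymes and paralogues, and Slc2a1, Gapdh, Ldha, Pdk1 and Car9 were to be named. From 5 lists of other pathway genes (114 measured) up to 4 called genes per list with the largest fold were allowed, plus 9 genes whatever their values. The members and all lists were chosen with earlier results of these data known. Alternatives were other normalizations, low genes left out (below 6.21 on every array, leaving 16082 genes), an intensity trend, the mean of a gene's probe sets, a replicate block, replicate 2 of each tumour population left out, each array left out, fits of the compared groups alone and no fold limit. For the list of other sugar transport and glycolysis genes, lower calls in tumour against healthy means are not reported here.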

Additional observations from a re-analysis of the deposited data

Results flagged for a closer look

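Slc16a1, Slc16a3 and Ddit4 had tumour differences that differed between the lineages by the interaction test of limma. For Slc16a1 the tumour difference of macrophages minus that of Ly6C-high cells was -4.19 (adjusted p = 0.0412), for Slc16a3 it was 1.60 (adjusted p = 0.0277) and for Ddit4 it was 1.36 (adjusted p = 0.0446). These calls depended on single arrays, as given above, and after median centring Slc16a1 (limma adjusted p = 0.0562) and Ddit4 (0.0546) did not pass. The members' shares of 5.41% and 2.70% were close to the 3.12% and 3.44% of all genes that passed in the same directions. The healthy reference groups differ for the same 3 genes, and the part of the tumour groups and of the reference groups in these values was not tested apart.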

How the results depend on the processing

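No difference of a single gene that was called changed its sign under any setting. Of 140 counts of called members under other settings, 124 stayed within 1.5 times the reported count and 16 did not, and of 128 counts with 1 array left out 96 did and 32 did not. Over 4958 single differences, 175 calls were lost and 108 gained.

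Genes called lower in F4/80-high TAM than in colon macrophages numbered 0, but 1 with a replicate block and 2 with replicate 2 of each tumour population left out. Genes called higher in colon macrophages than in spleen monocytes rose from 3 to 5 with low genes left out, an intensity trend or the replicate block, and those lower from 2 to 6 with no fold limit. In Ly6C-high TAM against colon macrophages, 1 was lower with low genes left out or with replicate 2 of each tumour population left out. With no fold limit, 23 were higher in tumour against healthy means. For the interaction, higher calls went from 2 to 1 without replicate 2 of each tumour population. Lower calls went from 1 to 0 with median centring, 2 with quantile normalization, low genes left out, an intensity trend or the replicate block, and 3 without replicate 2 of each tumour population. Median centring raised every difference of F4/80-high TAM minus colon macrophages by 0.138. The cause of these changes was not tested, beyond the smaller number of arrays or genes in the fit.

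With each array left out in turn, genes called higher ranged from 4 to 14 in F4/80-high TAM against colon macrophages (lower 0 to 1), 5 to 17 in Ly6C-high TAM against spleen monocytes, 0 to 5 in colon macrophages against spleen monocytes (lower 1 to 2), 4 to 11 in F4/80-high TAM against spleen monocytes, 9 to 18 in Ly6C-high TAM against colon macrophages (lower 0 to 1), 12 to 16 in tumour against healthy means and 0 to 2 for the interaction (lower 0 to 2). Between the tumour populations 0 were called in each.

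The replicate numbers did not pair the samples over all 4 populations. Same-numbered arrays of the tumour populations deviated together (correlation 0.77), while the other correlations of deviations ran from -0.155 to 0.259. The replicate block called 13 genes higher in F4/80-high TAM against colon macrophages, 18 in Ly6C-high TAM against spleen monocytes and 15 in tumour against healthy means. A block on the tumour arrays alone, chosen after seeing the data, again called 0 between the tumour populations.

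With 2 arrays per group, small differences could not be told from the spread between arrays. The Gapdh probe set lay near the top of the scale. Epithelial gene means were highest on the colon arrays and higher in replicate 2 than in replicate 1 of each tumour population, and their part in the members' values was not tested.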

Other observations

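The pentose phosphate genes make the proteins that form NADPH and ribose from glucose. Of 9 measured, 0 were called in F4/80-high TAM against colon macrophages (limma, 6 higher and 0 lower at an unadjusted p under 0.05), where 2.67% of all genes were called higher and 3.72% lower. In Ly6C-high TAM against spleen monocytes 0 were called higher and 2 lower, where 2.88% and 1.62% of all genes were. G6pdx, the first enzyme of the pathway, read 11.15 and 11.42 in F4/80-high TAM, 11.25 and 11.28 in Ly6C-high TAM, 10.85 and 10.89 in colon macrophages, and 12.25 and 12.33 in spleen monocytes. The spleen arrays were highest, and the colon arrays lowest. Its tumour difference was -1.02 ± 0.13 in the Ly6C-high cells (adjusted p = 0.00657) and 0.41 ± 0.13 in the macrophages, with an interaction of 1.43 ± 0.18 (adjusted p = 0.0112). G6pd2, a retrogene copy of G6pdx that may share its signal, was the other gene called (-1.07 ± 0.11).

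Of 18 genes of pyruvate entry and gluconeogenesis, 3 were called lower in F4/80-high TAM than in colon macrophages and 0 higher by limma, where 3.72% and 2.67% of all genes were. At an unadjusted p under 0.05 these were 5 lower and 1 higher. They were Pck1 (-2.47 ± 0.31) and Fbp2 (-2.39 ± 0.33), enzymes of glucose synthesis, and Pdk4 (-1.15 ± 0.23), a pyruvate dehydrogenase kinase. All 3 were called higher in colon macrophages than in spleen monocytes, as were the 24 epithelial genes measured, and the part of epithelial RNA in their values was not tested. Slc2a6, a glucose transporter of myeloid cells, was 1.12 ± 0.16 higher in F4/80-high TAM than in colon macrophages and fell by 1.25 in Ly6C-high TAM against spleen monocytes, with an interaction of 2.36 ± 0.22 (limma adjusted p = 0.00523).

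Of the marker lists not described above, the mean log2 value of 18 immediate early genes, known to be induced while tissue is digested, was 11.76 and 11.69 on the colon arrays and lay between 9.91 and 11.52 on the others. Neutrophil genes (14) had means of 6.66 to 7.94, T, NK and B cell genes (15) of 6.36 to 7.48, endothelial genes (9) of 6.82 to 8.33 and erythroid genes (6) of 6.93 to 7.66 over the 8 arrays. The last 3 means were higher in replicate 2 than in replicate 1 of both tumour populations, and the neutrophil mean in F4/80-high TAM only. Single genes could depart from their list. Jchain, in the T, NK and B cell list, read 11.67 and 11.73 on the colon arrays and 5.19 to 8.96 elsewhere. The part of these cells in the values of the 37 genes was not tested.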
